A study of Mus musculus with 8 samples.

Results

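The 10 genes described here encode enzymes and regulators of gluconeogenesis and glycogen storage. They are Pcx, Pck1, Fbp1, G6pc and Slc37a4 of glucose production, and Ugp2, Gys2, Ppp1r3b, Ppp1r3c and Pygl of glycogen turnover. They were taken by gene symbol from a table of 22155 genes, and all 10 were found and stood among the 13999 genes that passed the filter on low counts. Gluconeogenesis rebuilds glucose from lactate, amino acids and glycerol, and the liver and kidney are its main sites. Pyruvate carboxylase and phosphoenolpyruvate carboxykinase lead pyruvate around the irreversible pyruvate kinase step, fructose-1,6-bisphosphatase reverses the phosphofructokinase step, and glucose-6-phosphatase releases free glucose to the blood. Glycogen, the liver's glucose store, is built after meals and broken down in fasting, under insulin and glucagon.

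Bulk liver RNA was sequenced in 8 libraries, 2 in each of 4 groups, from C57BL/6 mice. The Yap1 knockout livers were Yap1 floxed and had received AAV8-iCre, a virus that deletes Yap1 in hepatocytes. The Yap control livers were Yap1 floxed and had received AAV8-GFP. The Ctgf knockout livers were Ctgf conditional knockouts, with a Cre driver not given in the sources used here, and the Ctgf control livers were Ctgf floxed homozygotes. All groups shared the injury. Ethanol was fed in a Lieber-DeCarli liquid diet, at 1% for the first 2 days and then at 2% for 10 days, and carbon tetrachloride (CCl4), a poison of pericentral hepatocytes, was injected at 1 µl per g 2 days before the liver was taken. The sample labels give an age of 8 to 10 weeks, and the design text of the series gives 8 weeks. The labels do not say whether the replicates of a group were separate animals, so the p-values measure only the spread between these libraries, which may be technical. Yap1 encodes a transcriptional coactivator held back by Hippo signalling, and Ctgf a matrix-associated protein that YAP is known to induce.

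Total counts ran from 26904021 to 33488609 per library, and 2 libraries stood apart. Yap control replicate 2 held transcripts of exocrine pancreas: its 11 marker genes were all detected and took 1.05% of its counts, whereas 5 to 9 of them were at 0 in each other library. Islet markers summed to 42.7 CPM (counts scaled to a common library size by the TMM method) there and to at most 0.0346 CPM elsewhere. The library labelled Ctgf knockout replicate 2 went against its label, with Ctgf at 8.02 and 49.2 CPM in the libraries labelled Ctgf knockout replicates 1 and 2, against 28.8 and 32.1 CPM in Ctgf controls. Yap1 stood at 31.0 and 32.5 CPM in Yap1 knockouts and at 107 and 76.1 CPM in Yap controls. Ctgf stood at 406 and 324 CPM in Yap1 knockouts, against 96.8 and 50.1 CPM in Yap controls, and both knockouts were above both controls (log2 fold change 2.31, SE 0.718, adjusted p 0.250 by edgeR). The 6 measured hepatocyte markers were detected in every library and summed to between 57845 and 109494 CPM, with the highest sums in Yap control replicate 2 and in the library labelled Ctgf knockout replicate 2.

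Promoter sequence was examined because YAP binds DNA through TEAD factors, and because cyclic AMP and hypoxia are known to act on genes of these pathways. RefSeq windows of GRCm38.p6, from 250 bases before to 50 bases after a transcription start, were at hand for 8 of the 10 genes, 12 windows in all. Gys2 and Ppp1r3b had none. The upstream 250 bases are shown for Fbp1 and Ppp1r3c, the members that differed most in Yap1 knockout liver, and for Pck1, whose cyclic AMP response element is well known from the rat gene. Capitals mark letters that match the searched motifs.

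Fbp1, chr13:62888283-62888532, minus strand: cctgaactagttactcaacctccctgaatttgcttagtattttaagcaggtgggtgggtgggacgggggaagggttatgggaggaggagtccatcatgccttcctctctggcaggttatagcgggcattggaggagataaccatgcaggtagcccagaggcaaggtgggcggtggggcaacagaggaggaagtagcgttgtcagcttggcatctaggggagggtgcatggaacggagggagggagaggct
Ppp1r3c, chr19:36736605-36736854, minus strand: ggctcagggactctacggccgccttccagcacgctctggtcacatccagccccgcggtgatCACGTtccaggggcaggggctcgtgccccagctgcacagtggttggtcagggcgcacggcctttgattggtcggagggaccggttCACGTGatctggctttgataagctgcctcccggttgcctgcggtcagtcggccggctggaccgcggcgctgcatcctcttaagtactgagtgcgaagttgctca
Pck1, chr2:173152823-173153072, plus strand: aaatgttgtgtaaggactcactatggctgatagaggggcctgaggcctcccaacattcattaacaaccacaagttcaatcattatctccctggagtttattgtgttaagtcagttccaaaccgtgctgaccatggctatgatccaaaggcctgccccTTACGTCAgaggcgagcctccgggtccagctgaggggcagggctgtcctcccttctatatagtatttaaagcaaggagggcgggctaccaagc

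The motifs searched on both strands were GGAATG for TEAD, TGACGTCA and TTACGTCA for the cyclic AMP response element, and ACGTG for the core of the hypoxia response element. The TEAD letters were in 0 of the 12 windows, against 14.7% of all 32851 RefSeq windows. These windows are few and not all separate, since windows of Slc37a4 overlap. Sequence outside them was not searched. TTACGTCA was in 1 of the 12, that of Pck1, starting 93 bases before the transcription start, against 0.499% of all windows, and TGACGTCA was in 0 of the 12, against 1.79%. ACGTG was in 4 of the 12 windows (Pcx, Ugp2, Ppp1r3c and Pygl), against 19.6% of all windows. The match of Ppp1r3c nearest its start lies in CACGTG, an E-box, which contains the core on both strands and was in 2 of the 12 windows and in 7.15% of all. The Fbp1 window held no match to any of these letters.

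The levels of the 10 genes differed widely. Per kilobase of exon (union of GENCODE exons), Pck1 was the highest member in 3 of the 4 groups, and Fbp1 was the highest in Yap1 knockout liver. In Yap1 knockouts Fbp1 averaged 881 ± 43.5 CPM per kb and Pck1 566 ± 4.30 CPM per kb, against 218 ± 63.2 and 650 ± 159 CPM per kb in Yap controls (SD, n = 2 each). The libraries of these 2 genes did not overlap within either group, so their order was opposite in knockout and control. Pcx, Ugp2 and G6pc followed, at 118, 93.6 and 50.5 CPM per kb in Yap1 knockouts and at 90.1, 114 and 84.9 CPM per kb in Yap controls. In Yap controls the libraries of Pcx (SD 32.4 CPM per kb) overlapped those of Ugp2 and of G6pc, and Ugp2 lay above G6pc. At the low end stood Ppp1r3c, at 0.938 ± 0.194 CPM per kb in Yap1 knockouts and 4.53 ± 0.640 in Yap controls, against 13.7 ± 0.738 in libraries labelled Ctgf knockout and 15.5 ± 5.10 in Ctgf controls. In Ctgf controls Ppp1r3b (14.2 ± 1.12 CPM per kb) and Slc37a4 (12.9 ± 0.477 CPM per kb) both lay within the spread of Ppp1r3c and had no order with it, while the libraries of Ppp1r3b lay just above those of Slc37a4.

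**Figure D1:**
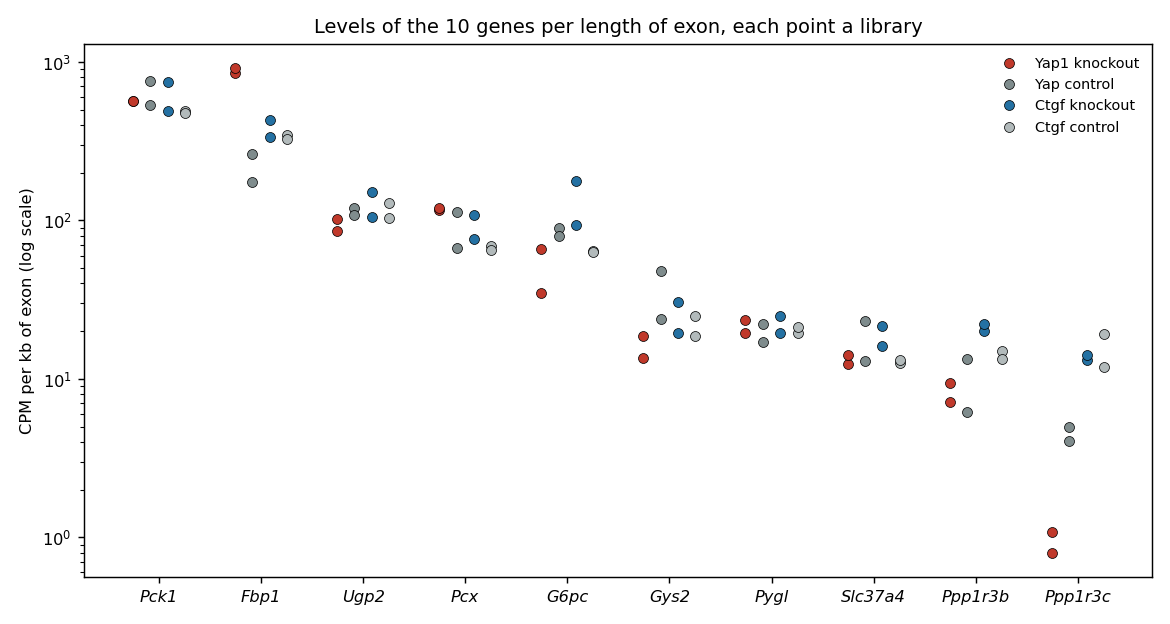
Level of each of the 10 genes in CPM per kb of exon, on a log axis; each point is a library and the colours are the 4 groups, 2 libraries each. Pck1 and Fbp1 lie on top, Fbp1 is above Pck1 in Yap1 knockouts alone, and Ppp1r3c runs from about 1 CPM per kb in Yap1 knockouts to 19.1 CPM per kb in a Ctgf control.

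Yap1 knockout liver was compared with Yap control liver to ask what hepatocyte Yap1 contributes. Fbp1 was 4.04-fold higher and Ppp1r3c, a subunit that targets protein phosphatase 1 to glycogen, was 4.82-fold lower in Yap1 knockout liver by fitted value, and the other 8 genes lay between these. None of the 10 genes passed adjusted p under 0.05 by the quasi-likelihood test of edgeR, adjusted after Benjamini and Hochberg, where 0.0286% of the 13999 genes did (4 genes, of which 3 were higher). At unadjusted p under 0.05 the members were 3 of 10, against 13.8% of all genes (929 higher and 999 lower). Both knockout libraries lay on the same side of both controls for 6 of 10 members, against 44.4% of all genes. The members' median log2 fold change was -0.26, that of all genes -0.0046, and 7 of the 10 members were below 0. In bulk liver, fewer cells of a type and less RNA per cell cannot be told apart.

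Fbp1 encodes the liver fructose-1,6-bisphosphatase (GRCm38 chromosome 13, 62864753 to 62888282, minus strand). Its levels were 1447 and 1552 CPM in Yap1 knockouts, against 295 and 447 CPM in Yap controls, 730 and 575 CPM in libraries labelled Ctgf knockout, and 590 and 554 CPM in Ctgf controls. The Yap1 knockouts stood above every other library, and the Yap controls below them all. Its log2 fold change came to 2.02 (SE 0.281, with 2 against 2 libraries), rank 24 by p of 13999 genes, with an adjusted p of 0.0557 by edgeR, just outside the threshold.

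Ppp1r3c (chromosome 19, 36731731 to 36736653, minus strand) encodes PTG, which brings the phosphatase that activates glycogen synthase to the glycogen particle. It stood at 2.93 and 2.18 CPM in Yap1 knockouts (89 and 63 reads), against 11.1 and 13.6 CPM in Yap controls (402 and 330 reads). In libraries labelled Ctgf knockout it was 35.8 and 38.7 CPM, and in Ctgf controls 52.1 and 32.4 CPM. The 3 tiers did not overlap: Yap1 knockouts were lowest, Yap controls next, and all 4 Ctgf-line libraries highest. The log2 fold change between Yap1 knockouts and Yap controls was -2.27 (SE 0.301), rank 15, with an adjusted p of 0.0557 by edgeR, the same value as for Yap1 itself (-1.53, SE 0.215, rank 28), since the adjustment ties neighbouring ranks.

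The calls of Fbp1 and Ppp1r3c turned on the setting. Neither passed with RLE or upper quartile scaling, limma-voom, the filter of at least 1 CPM in 2 libraries, or the replicate block. Neither passed with only the libraries compared. Fbp1 passed in 5 and Ppp1r3c in 4 of the 17 alternatives, while their directions held in 17 of 17 each. Over those alternatives the log2 fold change ran from 1.72 to 2.35 for Fbp1 and from -2.49 to -2.07 for Ppp1r3c, with adjusted p from 1.39e-09 and 1.94e-08, both by DESeq2, to 0.587 each. With DESeq2 (3.67% of genes past the threshold) and with no low-count filter (0.21% past, adjusted p 0.0367 for each gene) both passed. Both also passed without Yap control replicate 1 (25.8% past), with adjusted p of 0.00874 for Fbp1 and 0.00846 for Ppp1r3c. Without Yap control replicate 2, which held the pancreatic transcripts (0.28% past), Fbp1 passed at 0.0396 and Ppp1r3c stood at 0.0688. Without both libraries that stood apart (6.58% past) Fbp1 had a log2 fold change of 2.35 and an adjusted p of 0.00635, and Ppp1r3c -2.12 and 0.0258.

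The other genes of glucose production differed less. Pcx encodes pyruvate carboxylase, the entry step, and stood at 556 and 565 CPM in Yap1 knockouts, against 319 and 537 CPM in Yap controls. Both knockouts were above both controls, but Yap control replicate 2 was close to them, and the log2 fold change was 0.39 (SE 0.301, adjusted p 0.556 by edgeR). The log2 fold change was 0.81 once both libraries that stood apart were left out, and 0.033 without Yap control replicate 1. Pck1 encodes cytosolic phosphoenolpyruvate carboxykinase, and it stood at 1930 and 1951 CPM in Yap1 knockouts, against 2614 and 1845 CPM in Yap controls. The knockouts lay between the controls, at -0.20 on the log2 scale (SE 0.300), and the adjusted p was 0.757 by edgeR.

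G6pc encodes the catalytic subunit of glucose-6-phosphatase, the last step before glucose leaves the cell. It stood at 84.6 and 159 CPM in Yap1 knockouts, against 217 and 193 CPM in Yap controls. Both knockouts were below both controls but differed from each other almost as much as the groups did (log2 fold change -0.75, SE 0.378, adjusted p 0.411 by edgeR). Slc37a4 encodes the transporter that brings glucose 6-phosphate to that enzyme in the endoplasmic reticulum. Its levels were 35.3 and 40.2 CPM in Yap1 knockouts, against 37.2 and 66.5 CPM in Yap controls, and the groups overlapped (log2 fold change -0.46, SE 0.291, adjusted p 0.484 by edgeR). The value passed without Yap control replicate 1 (-0.85, adjusted p 0.0302) and was 0.021 without Yap control replicate 2.

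Among the other glycogen genes, Gys2, the liver glycogen synthase, was the one with the largest fold. It stood at 35.7 and 49.2 CPM in Yap1 knockouts, against 63.0 and 128 CPM in Yap controls. The knockouts were below both controls, and Yap control replicate 2 was the highest of all 8 libraries. The log2 fold change was -1.17 (SE 0.381, unadjusted p 0.0157, adjusted p 0.266 by edgeR). It was -1.62 without Yap control replicate 1, which left only the library with pancreatic transcripts as control, and -0.57 without Yap control replicate 2.

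Ugp2, which makes the UDP-glucose that glycogen synthase uses, stood at 262 and 312 CPM in Yap1 knockouts and 367 and 334 CPM in Yap controls (log2 fold change -0.29, SE 0.255). Ppp1r3b encodes GL, the other main liver glycogen-targeting subunit of protein phosphatase 1, and stood at 58.1 and 44.7 CPM in Yap1 knockouts, against 83.0 and 38.2 CPM in Yap controls (-0.24, SE 0.343). Pygl, the liver glycogen phosphorylase that frees glucose 1-phosphate, stood at 162 and 133 CPM in Yap1 knockouts, against 119 and 154 CPM in Yap controls (0.11, SE 0.231). The groups overlapped for Ppp1r3b and Pygl and not for Ugp2, and the adjusted p by edgeR was 0.60, 0.745 and 0.822 for Ugp2, Ppp1r3b and Pygl. The 2 targeting subunits thus stood apart in their values: Ppp1r3c was at most 2.93 CPM in Yap1 knockouts, while Ppp1r3b kept within the range of its controls.

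**Figure D2:**
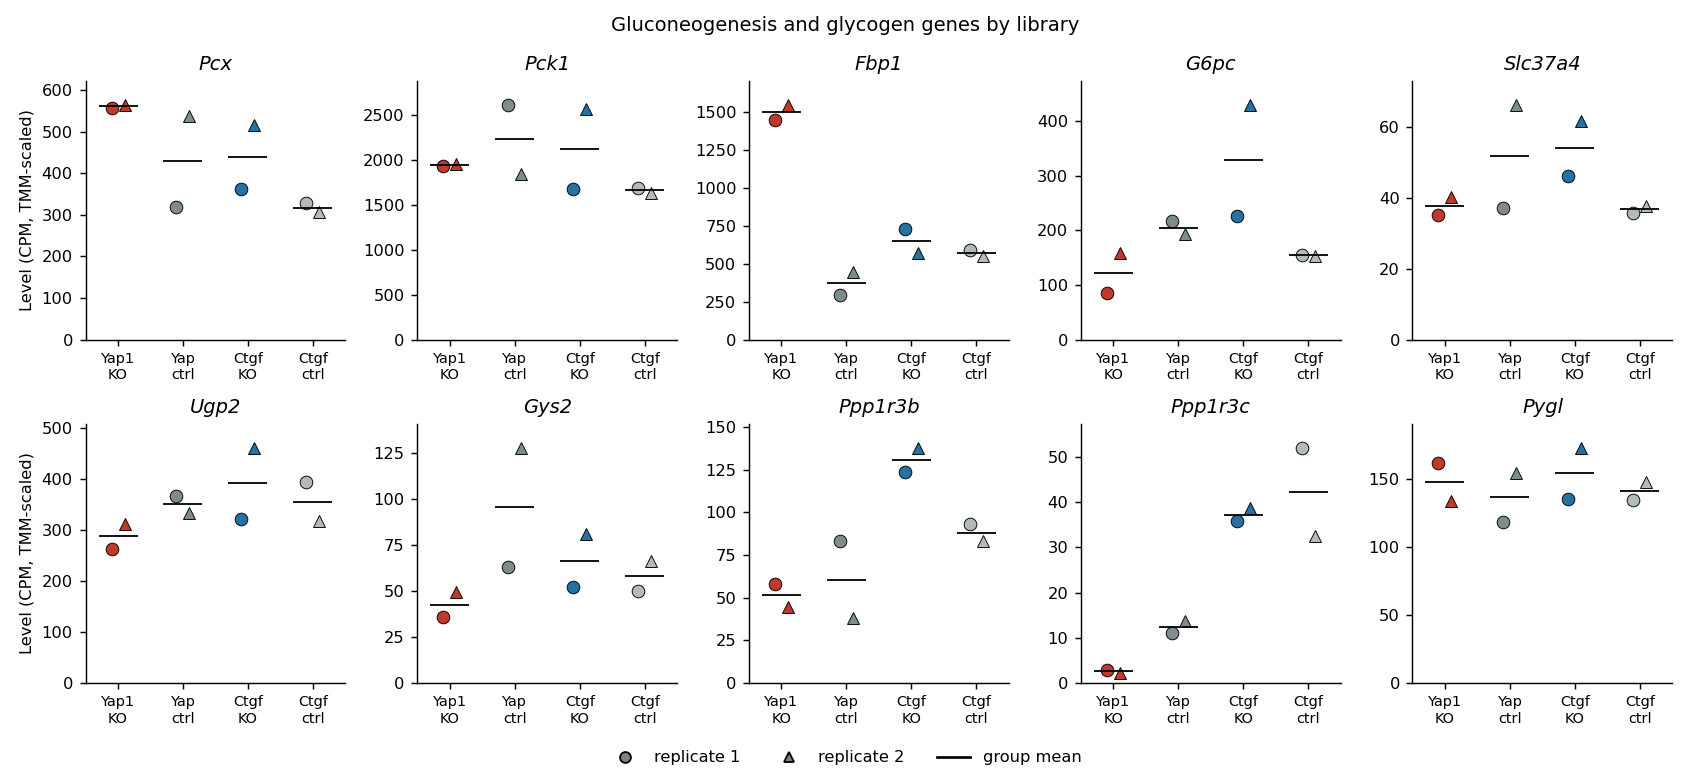
TMM-scaled CPM of each of the 10 genes (linear axes from 0) in Yap1 knockout (KO), Yap control, Ctgf knockout as labelled and Ctgf control libraries; circles are replicate 1, triangles replicate 2, and lines the group means. Fbp1 stands at 1447 and 1552 CPM in Yap1 knockouts and at 295 to 730 CPM in the other 6 libraries, and Ppp1r3c steps from 2.18 CPM up to 52.1 CPM.

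Markers of hepatocytes, of the liver's zones and of neutrophils were read beside these values. The 6 measured hepatocyte markers summed to 69299 and 84716 CPM in Yap1 knockouts, against 61840 and 109494 CPM in Yap controls. By gene, 4 of these 6 were below 0 and 2 above, with a median log2 fold change of -0.38. At unadjusted p under 0.05, 1 was lower and 0 higher, against 13.8% of all genes in either direction. The 10 periportal hepatocyte markers, the zone where gluconeogenesis is known to be strongest, were all detected and summed to 7866 and 8924 CPM in Yap1 knockouts, against 5867 and 5208 CPM in Yap controls. Without Pck1, which is also a member, the sums were 5936 and 6973 CPM in Yap1 knockouts, against 3253 and 3363 CPM in Yap controls. The 2 most abundant of the other 9 markers held 80.4% and 84.3% of that sum in Yap1 knockouts and 75.1% and 69.7% in Yap controls. By gene, 6 of 10 periportal markers were above 0 and 4 below (median 0.31 on the log2 scale). At unadjusted p under 0.05, 3 were higher and 0 lower, against 13.8% of all genes in either direction. Of the 10 pericentral markers, also all detected, 8 were below 0, with a median of -0.76, and 3 were lower and 0 higher at unadjusted p under 0.05: Lgr5 (-3.28), Cyp1a2 (-2.22) and Axin2 (-1.34), whose knockout libraries lay below both controls. Their sum, led by Cyp2e1 and Gulo, was 518 and 549 CPM in Yap1 knockouts, against 362 and 1186 CPM in Yap controls. None of these markers passed the adjusted threshold. The 6 neutrophil markers summed to 940 and 454 CPM in Yap1 knockouts and to 128 and 241 CPM in Yap controls, with 6 of 6 above 0. The part of these markers in the values of Fbp1, Ppp1r3c and Gys2 was not tested.

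The rest of the pathway was read from 4 lists of genes, and none of their genes passed by edgeR in the Yap1 comparison. Of 21 tested genes of gluconeogenesis and the steps it shares with glycolysis, 7 were higher and 2 lower at unadjusted p under 0.05, with a median log2 fold change of 0.021. The share of all genes at that p was 13.8%, here and for the lists below. Got1, the cytosolic aspartate aminotransferase, averaged 638 ± 244 CPM in Yap1 knockouts and 240 ± 49.4 CPM in Yap controls (log2 fold change 1.41, SE 0.318, adjusted p 0.154). Gapdh had the smallest p of that list (1.03, adjusted p 0.153), but stood at only 8.56 to 21.5 CPM, and its count is uncertain because many near-identical copies of this gene can divide its reads. Of 25 other glycogen genes tested, 5 were higher and 1 lower at unadjusted p, with a median of 0.27. Gys1, the glycogen synthase of muscle and most other tissues, stood at 25.8 and 21.0 CPM in Yap1 knockouts, against 11.3 and 9.71 CPM in Yap controls (1.15, SE 0.236, adjusted p 0.132), opposite in sign to Gys2. Gsk3b, the kinase that inhibits glycogen synthase, averaged 121 ± 16.1 CPM in Yap1 knockouts and 68.8 ± 22.2 CPM in Yap controls (0.82, adjusted p 0.250). The branching enzyme Gbe1 (0.58) had an adjusted p of 0.435.

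The list of glucose uptake and glycolytic control held the lowest values after Ppp1r3c, but it ran from -1.79 up to 1.70 on the log2 scale. Of 13 genes tested, 3 were higher and 3 lower at unadjusted p, against 13.8% of all genes, with a median of -0.30. Slc2a2, the liver glucose transporter GLUT2, stood at 26.4 and 40.6 CPM in Yap1 knockouts, against 109 and 122 CPM in Yap controls (-1.79, SE 0.268, adjusted p 0.077 by edgeR). Pklr, the liver pyruvate kinase, averaged 50.7 ± 8.07 CPM in Yap1 knockouts and 151 ± 1.70 CPM in Yap controls (-1.58, SE 0.260, adjusted p 0.0959). In both genes the knockouts lay below all 6 other libraries.

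Of 26 hormonal and transcriptional control genes, 3 were higher and 2 lower at unadjusted p, against 13.8% of all genes, with a median of 0.26. Tat, the glucocorticoid- and glucagon-responsive tyrosine aminotransferase, averaged 1996 ± 424 CPM in Yap1 knockouts and 664 ± 281 CPM in Yap controls (1.59, adjusted p 0.153). Ppargc1a, a coactivator that drives gluconeogenic genes in fasting, stood at 49.0 and 54.7 CPM in Yap1 knockouts, against 26.6 and 25.3 CPM in Yap controls (0.9985, SE 0.218, adjusted p 0.153). The glucagon receptor Gcgr stood at 80.8 and 66.2 CPM in Yap1 knockouts, against 103 and 201 CPM in Yap controls (-1.05, adjusted p 0.233). The insulin signalling adaptor Irs2 (0.52) and the insulin-repressed Igfbp1 (0.51) had adjusted p of 0.456 and 0.651 by edgeR.

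**Figure D3:**
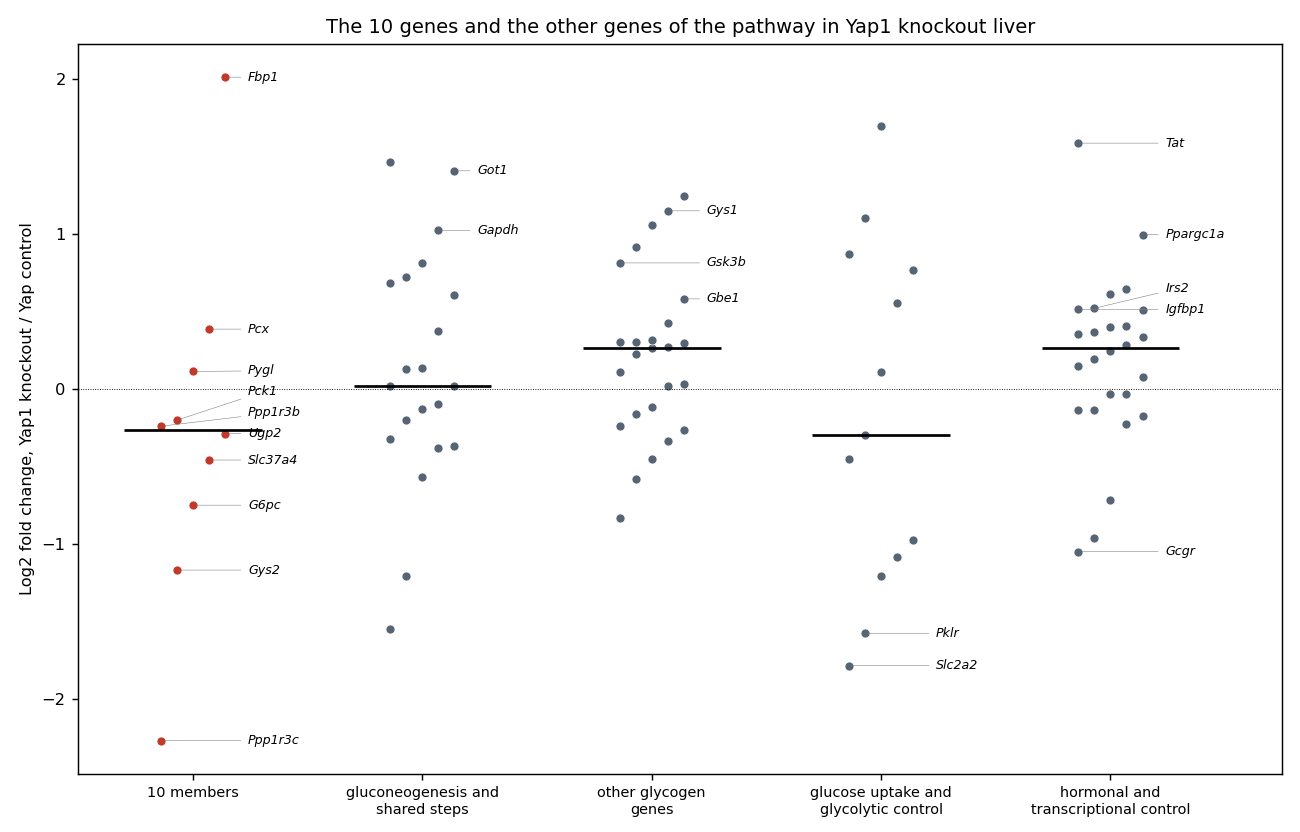
Log2 fold change in Yap1 knockout against Yap control liver of the 10 genes (red) and of the tested genes of 4 pathway lists (grey), with black lines at the medians and labels on the genes named in the text. The 10 genes span -2.27 to 2.02, Slc2a2 and Pklr lie at -1.79 and -1.58, and Tat and Got1 at 1.59 and 1.41; no gene shown passed adjusted p under 0.05.

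The libraries labelled Ctgf knockout were compared with Ctgf controls to ask what Ctgf contributes, within the limit that replicate 2 held more Ctgf transcript than either control. No member passed by edgeR, where 0% of genes did, at unadjusted p under 0.05 there were 277 genes, and DESeq2 called 4. At unadjusted p the members were 1 of 10, G6pc, against 1.98% of all genes. The groups did not overlap for 4 of 10 members, against 32.2% of all genes, and in each of these (Pcx, G6pc, Slc37a4 and Ppp1r3b) both labelled knockouts lay above both controls. The members' median log2 fold change was 0.28 against 0.0064 for all genes, and 9 of 10 were above 0.

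G6pc had the largest value, with 225 and 430 CPM in libraries labelled Ctgf knockout, against 155 and 153 CPM in Ctgf controls. Both labelled knockouts were above the controls, and the library that went against its label was the highest of all 8. The log2 fold change was 1.09 (SE 0.380, unadjusted p 0.0214, adjusted p 1 by edgeR), 0.55 without the library labelled Ctgf knockout replicate 2 and 1.49 without replicate 1. The partner transporter Slc37a4 stood at 46.3 and 61.8 CPM in libraries labelled Ctgf knockout, against 35.9 and 37.8 CPM in Ctgf controls (0.55, SE 0.292, and 0.33 without the library labelled Ctgf knockout replicate 2). Ppp1r3b stood at 124 and 138 CPM in libraries labelled Ctgf knockout, against 92.9 and 83.1 CPM in Ctgf controls (0.57, SE 0.343), its highest levels in the series.

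Pcx stood at 361 and 516 CPM in libraries labelled Ctgf knockout, against 327 and 307 CPM in Ctgf controls (0.47, SE 0.301). Pck1 stood at 1675 and 2566 CPM in libraries labelled Ctgf knockout, against 1689 and 1628 CPM in Ctgf controls (0.35, SE 0.301). In both genes replicate 2 alone made most of the difference: without it the log2 fold change of Pcx was 0.19 and that of Pck1 0.014. Fbp1 (0.19, SE 0.270), Ugp2 (0.14, SE 0.254), Gys2 (0.20, SE 0.376), Pygl (0.13, SE 0.231) and Ppp1r3c (-0.18, SE 0.275) overlapped between the groups. In the same library the hepatocyte markers summed to 102592 CPM, where the other 3 Ctgf-line libraries held 57845 to 63195 CPM. The 6 neutrophil markers summed to 68.3 and 137 CPM in libraries labelled Ctgf knockout, against 160 and 189 CPM in Ctgf controls, with 6 of 6 below 0. The 6 macrophage markers summed to 254 and 472 CPM in libraries labelled Ctgf knockout, against 505 and 669 CPM in Ctgf controls, with 5 of 6 below 0. The part of these markers in the members' values was not tested.

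None of the genes of the 4 pathway lists passed in the Ctgf comparison either. The smallest p were those of Ppargc1a, at 21.6 ± 3.21 CPM in libraries labelled Ctgf knockout against 39.5 ± 7.69 CPM in Ctgf controls (-0.87, SE 0.217, unadjusted p 0.0041), and of Pklr, at 127 and 199 CPM in libraries labelled Ctgf knockout against 81.1 and 92.9 CPM in Ctgf controls (0.91, SE 0.255, unadjusted p 0.00765). Mlxipl, the carbohydrate-responsive factor ChREBP (0.61), Cebpa (0.41), Gpi1 (0.27), Epm2a, the glycogen phosphatase laforin (0.51), and Ppp1r3g (0.70) all had an adjusted p of 1 by edgeR. Without the library labelled Ctgf knockout replicate 2 the log2 fold change was 0.55 for Pklr, 0.17 for Mlxipl and 0.038 for Gpi1, and without replicate 1 it was 0.27 for Epm2a. The values of Ppargc1a, Pklr and G6pc were thus of opposite sign in the Yap1 and the Ctgf comparisons. So were those of Pck1, Slc37a4, Ugp2, Gys2 and Ppp1r3b, and none of these values passed by edgeR. With single libraries left out, the Yap1 value of Pck1, Slc37a4 and Ppp1r3b turned sign, and so did the Ctgf value of Ugp2 and Gys2.

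**Figure D4:**
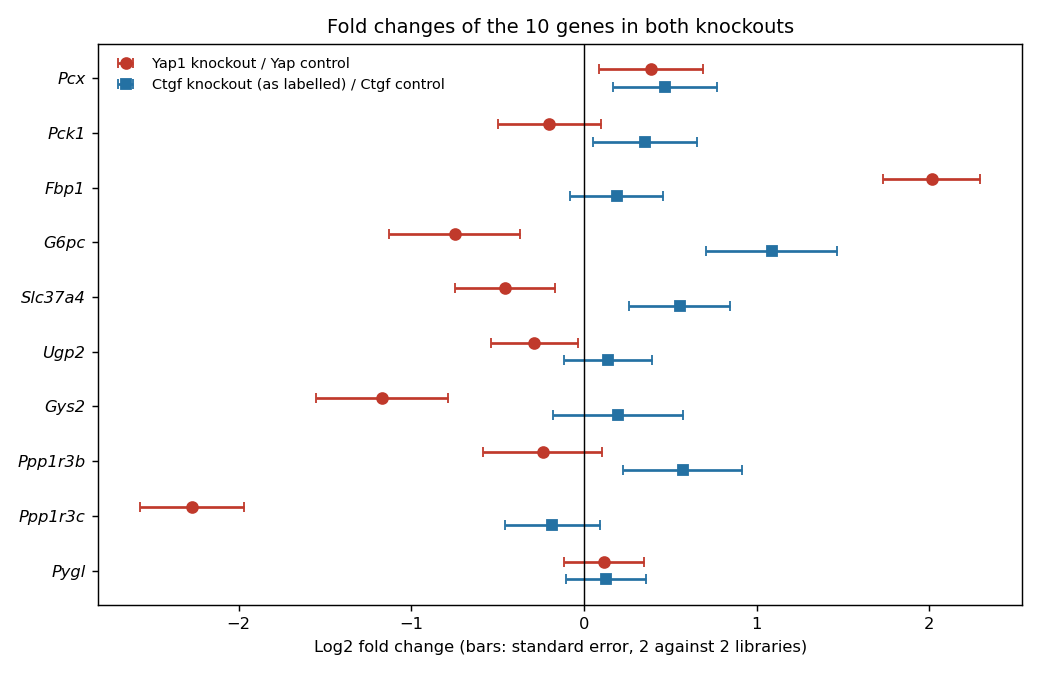
Log2 fold change of each of the 10 genes in Yap1 knockout against Yap control (red circles) and in Ctgf knockout as labelled against Ctgf control (blue squares); bars are standard errors, 2 against 2 libraries. Fbp1 at 2.02 and Ppp1r3c at -2.27 lie far from 0 in the Yap1 comparison, while in the Ctgf comparison G6pc lies farthest, at 1.09.

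The difference between both effects was tested itself, as an interaction in the same fit. No member passed, where 0% of the genes did, 1242 genes had unadjusted p under 0.05 and DESeq2 called 142. At unadjusted p the members were 5 of 10, against 8.87% of all genes. The Yap1 effect exceeded the Ctgf effect by 1.83 (SE 0.386) for Fbp1, and lay below it by a log2 value of -2.09 (SE 0.404) for Ppp1r3c, -1.84 (SE 0.535) for G6pc, -1.37 (SE 0.534) for Gys2 and -1.01 (SE 0.412) for Slc37a4. The adjusted p by edgeR was 0.393 for Fbp1, 0.296 for Ppp1r3c, 0.475 for G6pc, 0.535 for Gys2 and 0.549 for Slc37a4. Without both libraries that stood apart the difference was 1.99 for Fbp1 and -1.88 for Ppp1r3c. Without Yap control replicate 1 (14.5% past), Fbp1, Ppp1r3c, Slc37a4 and Gys2 passed. The values of Gys2 and Slc37a4 were -0.76 and -0.53 without Yap control replicate 2, and -0.41 and -0.31 without both libraries that stood apart. In the pathway lists the lowest adjusted p were 0.271 for Pklr (-2.48) and 0.271 for Ppargc1a (1.87), followed by Slc2a2 (-1.94, adjusted p 0.296). Cebpa (-1.37), Got1 (1.62), Gpd1 (-1.70), Gaa (-0.78) and Gys1 (0.98) had adjusted p from 0.439 to 0.519.

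The Yap controls and the Ctgf controls differed in floxed allele, virus and line at once, which cannot be told apart. Which library kit each group had was not given either. Ppp1r3c was the member that passed: it fell to 12.4 ± 1.74 CPM in Yap controls, against 42.3 ± 13.9 CPM in Ctgf controls (SD, n = 2 each), which is -1.78 on the log2 scale (SE 0.285) with an adjusted p of 0.0332 by edgeR. That is 1 of 10 members, where 2.38% of genes passed in either direction (333 genes) and 1.11% passed as lower. At unadjusted p under 0.05 it was also 1 of 10, against 22.5% of all genes. Its adjusted p was 0.0579 with the replicate number as a block, 0.108 with only the 4 control libraries, 0.103 and 0.105 without Yap1 knockout replicates 1 and 2, and 0.331 and 0.271 without Ctgf control replicates 1 and 2.

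Both groups stood apart without overlap for 5 of 10 members in that comparison, against 53.2% of all genes. Fbp1 averaged 371 ± 108 CPM in Yap controls and 572 ± 25.7 CPM in Ctgf controls (-0.62, SE 0.271, adjusted p 0.224), so the Yap1 knockouts at 1447 and 1552 CPM were above both control groups. G6pc (0.41), Pck1 (0.43) and Ppp1r3b (-0.54) also had groups that did not overlap, with adjusted p of 0.546, 0.428 and 0.385 by edgeR. Pcx (0.43), Slc37a4 (0.49), Gys2 (0.72), Ugp2 (-0.020) and Pygl (-0.050) overlapped. Without Yap control replicate 2 the log2 fold change was 0.0042 for Pcx, 0.0097 for Slc37a4 and 0.12 for Gys2. Without Yap control replicate 1 (25.6% of genes past the threshold) Slc37a4 (0.87), Gys2 (1.17) and Ppp1r3b (-1.18) passed beside Ppp1r3c. Without both libraries that stood apart (28.4% past) Fbp1 (-0.96) and Pck1 (0.65) passed beside it. Among the pathway lists Ppp1r3e, a further glycogen-targeting subunit, passed: it stood at 8.77 and 6.13 CPM in Yap controls, against 1.56 and 1.76 CPM in Ctgf controls (2.16, SE 0.316, adjusted p 0.0283). This call was lost with the replicate block (0.0552), with only the control libraries (0.093), and without either Yap1 knockout (0.101 and 0.104) or either Ctgf control (0.329 and 0.294). Tpi1 (0.86), Hk1 (1.33), Pkm (1.30), Trib3 (-1.77) and Igfbp1 (1.62) did not pass, with adjusted p from 0.0643 to 0.139. Stellate cell markers (6 of 6 detected) summed to 470 and 327 CPM in Yap controls and 115 and 122 CPM in Ctgf controls, and endothelial markers (5 of 5) to 386 and 290 CPM in Yap controls and 167 and 215 CPM in Ctgf controls; their part in these values was not tested. The Yap controls enter both this comparison and that with the Yap1 knockouts, so the values of the 2 are not independent.

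Across the 8 libraries the members fell from steady to highly variable. The SD of log2 CPM was ranked among the tested genes of at least 5 CPM on average. It was 1.64 for Ppp1r3c, at or above that of 99.2% of those genes, and 0.81 for Fbp1 (93.3%). It was 0.66 for G6pc (88.6%) and for Ppp1r3b (88.4%), and 0.55 for Gys2 (82.0%). Pcx (63.3%) and Slc37a4 (55.5%) lay near the middle, and Pck1 (33.6%), Ugp2 (27.8%) and Pygl (11.5%) were steadier than most of those genes. As levels of transcript, the liver glycogen synthase Gys2 and the PTG gene Ppp1r3c thus spread more across these libraries than the glycogen phosphorylase Pygl.

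The genes most like each member were found among 10309 genes of at least 5 CPM, as the root mean square difference of centred log2 CPM over the 8 libraries, a description that shares depth and libraries between genes. For Fbp1 they were Sqle (0.20) and Lss (0.22), both enzymes of cholesterol synthesis, and Tat (0.25). For Ppp1r3c they were Cyp2c67 (0.29), Mfsd7c (0.44) and Cyp2c68 (0.47), and for G6pc Mup3 (0.23), Mn1 (0.32) and Pklr (0.33), where the counts of Cyp2c and Mup genes are uncertain because their copies are nearly identical. Ppcs (0.17) and Fcgrt (0.17) were among those most like Gys2. Ppp1r3b was most like Neo1 (0.15), Pcx like Nlrx1 (0.11), and Pck1, Slc37a4, Ugp2 and Pygl lay within 0.071 to 0.085 of Fam160a1, Pddc1, Crebl2 and P2rx4. Among the members themselves the closest pair was Pck1 and Ugp2 (0.24), and Gys2 and Slc37a4 lay at 0.31.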

How the data were processed

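RNA of 8 mouse liver libraries was measured by sequencing. The authors deposited whole-number read counts per gene symbol and library. The tools named, per the submitters' processing notes, are HTSeq 0.6.1, STAR 2.6.0a and bcl2fastq 2.20.0.422, with mm10 and GRCm38, which are names of 1 assembly. Annotation and strand setting were not given in the sources used here, so overlapping and antisense genes could not be told apart. Per the labels' protocols, RNA came from frozen liver by Trizol, and a TruSeq and a KAPA mRNA HyperPrep kit are named without saying which library used which.

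Differences in counts were tested by the quasi-likelihood method of edgeR 4.0.16 (with limma 3.58.1 and R 4.3.3) after TMM scaling and edgeR's own filter on low counts, which kept 13999 of 22155 genes. All 8 libraries entered 1 fit of the 4 groups without a block, with 4 residual degrees of freedom and a biological coefficient of variation of 27.2%, so that all groups were assumed to vary alike. The groups did not vary alike by the chi-square per degree of freedom between the counts of their replicates. It was 303 in Yap controls, 167 in libraries labelled Ctgf knockout, 53.5 in Yap1 knockouts and 15.1 in Ctgf controls. P-values were adjusted by Benjamini-Hochberg over all 13999 genes, with a threshold of 0.05. Standard errors follow from each fold change with its F value. Levels are TMM-scaled CPM, mean ± SD of 2 libraries. A floor of 3 counts corresponds to 0.083 to 0.123 CPM, which covers counting error only. Gene positions and exon lengths are those of GENCODE vM21. The fit was also run on simulated counts in which all groups had the same spread per gene. That run cannot test the assumption that the groups vary alike.

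The members, pathway lists and marker lists were chosen with earlier results of these data known. The named genes are the 10 members, Yap1, Ctgf and a fixed set of pathway genes always. To these were added, from each list and comparison, the genes past the threshold or, where none passed, the 2 with the smallest p, and the 3 genes most like each member by log2 CPM (offset 0.5). Results of some genes so named are not reported here. Alternatives were RLE or upper quartile scaling, DESeq2 1.42.0, limma-voom, no filter or at least 1 CPM in 2 libraries, the replicate number as a block, only the libraries compared, each library left out, and both libraries that stood apart left out. A group left with 1 library was assumed to vary like the others, so the p-values of such a fit hold no spread of that group.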

Additional observations from a re-analysis of the deposited data

How the results depend on the processing

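Counts of calls moved far more than fold changes. Genes past the threshold in the Yap1 comparison numbered 4, against 514 with DESeq2, 37 with no filter on low counts, 19 with the replicate block, 0 with only the 4 libraries compared, 0 to 3728 when single libraries were left out (3728 without Yap control replicate 1, 40 without Yap control replicate 2), and 938 without both libraries that stood apart; the members among them were 0, against 2, 2, 0, 0, 0 to 4 and 3. In the Ctgf comparison they were 0, against 4 with DESeq2 and 1 with limma-voom, with no member under any alternative. For the difference between the effects they were 0, against 142 with DESeq2 (2 members), 2 with no filter, 0 to 2092 with single libraries left out (0 to 4 members) and 143 without both libraries that stood apart (1 member). Between the control groups they were 333 (1 member), against 1527 with DESeq2, 170 with the replicate block (0 members), 0 with only the libraries compared (0 members), 0 to 3699 with single libraries left out (0 to 4 members) and 4056 without both libraries that stood apart (3 members); upper quartile scaling gave 244 higher and 114 lower genes, against 178 and 155, and moved the median of all genes to 0.18 from 0.041. The cause of these moves was not tested. The replicate block rests on shared replicate numbers and, for Yap replicate 2, on a control title that names a numbered knockout whose number stands in the column name of Yap1 knockout replicate 2; the number in the title of Yap control replicate 1 stands in its own column name, and no label says what the numbers share. With 2 pairs per line, same-numbered libraries had deviations correlated at 0.15 in the Yap line and 0.10 in the Ctgf line, and the block turned no sign but those of Pygl, in the difference (0.0029) and between the controls (0.046).

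Signs that turned with a setting were all of log2 fold changes that had not passed. With single libraries left out, the Yap1 comparison gave -0.43 to 0.045 for Pck1, -0.85 to 0.021 for Slc37a4, -0.69 to 0.40 for Ppp1r3b, -0.090 to 0.32 for Pygl and -0.048 to 1.37 for Igfbp1. The Ctgf comparison gave -0.14 to 0.39 for Ugp2, -0.16 to 0.49 for Gys2, -0.47 to 0.20 for Ppp1r3c, -0.063 to 0.31 for Pygl and -1.92 to 0.71 for Ctgf. The difference gave -0.44 to 0.35 for Pcx and -0.22 to 0.19 for Pygl, and the controls -0.15 to 0.16 for Ugp2 and -0.26 to 0.15 for Pygl. Without both libraries that stood apart, signs turned for Slc37a4 (0.020) in the Yap1 comparison, for Ugp2 (-0.14), Gys2 (-0.16) and Pygl (-0.062) in the Ctgf comparison, for Pcx (0.63) and Pygl (0.38) in the difference, and for Ugp2 (0.042) between the controls. Upper quartile scaling turned Ugp2 (0.12) and Pygl (0.092) between the controls. Depth limits Ppp1r3c most, with 63 reads in a Yap1 knockout.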

Other observations

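Pairs of genes that code for the liver form of an enzyme and for its form in other tissues were read together, after their values had been seen. Gys2, the liver glycogen synthase, stood above the general form Gys1 in every library, as a ratio of CPM per kb of 2.50 and 4.21 in Yap1 knockouts and of 10.0 and 23.7 in Yap controls. In the Ctgf line that ratio was 15.3 and 19.1 in libraries labelled Ctgf knockout and 14.2 and 20.2 in Ctgf controls, so the 2 Yap1 knockouts had the lowest ratios of all 8 libraries.

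Pklr, the liver pyruvate kinase, and Pkm, the form of muscle and dividing cells, had a ratio of 0.215 and 0.282 in Yap1 knockouts, 1.14 and 1.65 in Yap controls, 5.65 and 3.80 in libraries labelled Ctgf knockout, and 1.98 and 1.87 in Ctgf controls. Pkm thus exceeded Pklr in both Yap1 knockouts and in neither of their controls. In bulk liver, such ratios cannot tell a change within cells from a change in the mix of cells. The neutrophil markers were also higher in Yap1 knockouts, and the part of other cell types in these ratios was not tested.

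The pairs of gluconeogenesis and glycogen breakdown gave other values. Pygl to Pygb, the brain form of glycogen phosphorylase, was 6.38 and 5.38 in Yap1 knockouts and 4.05 and 6.15 in Yap controls, which overlap. The cytosolic Pck1 exceeded the mitochondrial Pck2 in every library, by ratios of 268 and 194 in Yap1 knockouts and 399 and 117 in Yap controls, which overlap too. Fbp1 to the muscle form Fbp2 was 883 and 509 in Yap1 knockouts and 148 and 89.3 in Yap controls, with Fbp2 at most 2.94 CPM per kb. These ratios were not tested.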
